A study of Mus musculus with 549 samples.

Results

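The comparison is between inguinal lymph nodes of the loaded side in mice pretreated with parathyroid hormone (PTH) and in mice pretreated with vehicle, 1 week after daily loading began. The members were chosen by the labels alone, as the left-limb libraries of treatments PV1 and VV1 among the lymph node libraries at 1 week. They are 11 of the 44 lymph node libraries at that time, and of 549 samples described in the series: 5 PV1 libraries from 5 mice and 6 VV1 libraries from 6 mice, counted by the codes in the sample titles. Each library came from 1 unpooled, snap-frozen node. All mice were male C57BL/6J, an inbred strain, and were 18 weeks old when pretreatment began and 27 weeks old at sampling. PV1 mice received subcutaneous PTH(1-34), the active N-terminal fragment of the hormone, 5 days per week for 8 weeks. They then received intraperitoneal saline vehicle while the left tibia was compressed to a peak load of 9 N at 4 Hz for 1200 cycles per day, 5 days per week, under isoflurane. VV1 mice received saline in both periods and the same loading, so loading and anaesthesia are common to both groups and PTH was no longer given in the week before sampling. The right tibia of the same mice was not loaded and its node is the contralateral control. VA1 and PA1 mice had vehicle or PTH in the first period and alendronate, a bisphosphonate that inhibits osteoclasts, during loading. V0 and P0 mice were sampled after pretreatment without loading. The question the comparison addresses is whether a transcript difference left by the hormone is present in the node that drains the loaded limb after the hormone has stopped.

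PTH acts through Pth1r, a G protein-coupled receptor that raises cyclic AMP and activates protein kinase A, which phosphorylates CREB and induces genes such as Nr4a1, Fos and Crem. The receptor is best known from osteoblasts, osteocytes and kidney tubule cells. The inguinal node lies in subcutaneous fat and holds mostly B and T lymphocytes, with dendritic cells, sinus macrophages, stromal cells, lymphatic endothelium and the high endothelial venules through which lymphocytes enter.

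Reads were counted per gene at the 3' ends of messenger RNA. The 44 libraries at 1 week held 1071107 to 2676246 reads. Within the comparison the VV1 left libraries held 1483959 to 2293251 reads and the PV1 left libraries 1071107 to 2008115. Levels are given as log2(authors' normalised count + 1), and differences as PTH minus vehicle on that scale, which understates the differences of low genes. The 11 libraries had the transcripts of a lymph node. The mean level of the B cell list ran from 7.40 to 8.13, that of the T cell list from 6.95 to 7.56 and that of the MHC class II list from 9.53 to 10.01, while the skeletal muscle list lay between 0.77 and 2.29. One library outside the comparison stood apart. The contralateral VV1 replicate 1 had a score of 176 on the first principal component of the 44 libraries, and the next highest was 11.5. Its erythroid list mean was 10.8 and its neutrophil and monocyte list mean 10.5, while its T cell list mean was 3.95. Counts of genes in contrasts that use this library are given with and without it for limma and edgeR. All 44 libraries share 1 residual spread per gene in limma, so it also enters the SE and p of the loaded-side values. Those are given with it.

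No gene passed the threshold in the loaded-side node. Of 14121 genes tested, 0 (0%) had a Benjamini-Hochberg adjusted p under 0.05 in limma, and the smallest adjusted p was 0.0914. At an unadjusted p under 0.05 there were 1388 genes (9.83%), of which 623 had higher and 765 had lower levels with PTH. Leaving out single libraries gave 861 (without VV1 replicate 5) to 1565 (without PTH replicate 3). edgeR's quasi-likelihood test on the recovered reads also called 0 genes, with 1395 at an unadjusted p under 0.05. DESeq2 called 2, Carkd higher and Sema3d lower. Without PV1 replicate 4, limma called 1 gene, Cdc14a (adjusted p 0.00143). The median difference over all genes was -0.003, and 49.6% of genes had a positive one. The 95% interval of the difference lay within 1 log2 unit on either side of 0 for 64.2% of all genes and for 92.1% of the 7088 genes with a mean level of 5 or more. In 237 genes (1.68%) the groups did not overlap. In 88 of them (0.623%) every PTH library lay above every vehicle library, and in 149 (1.06%) every PTH library lay below.

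**Figure D1:**
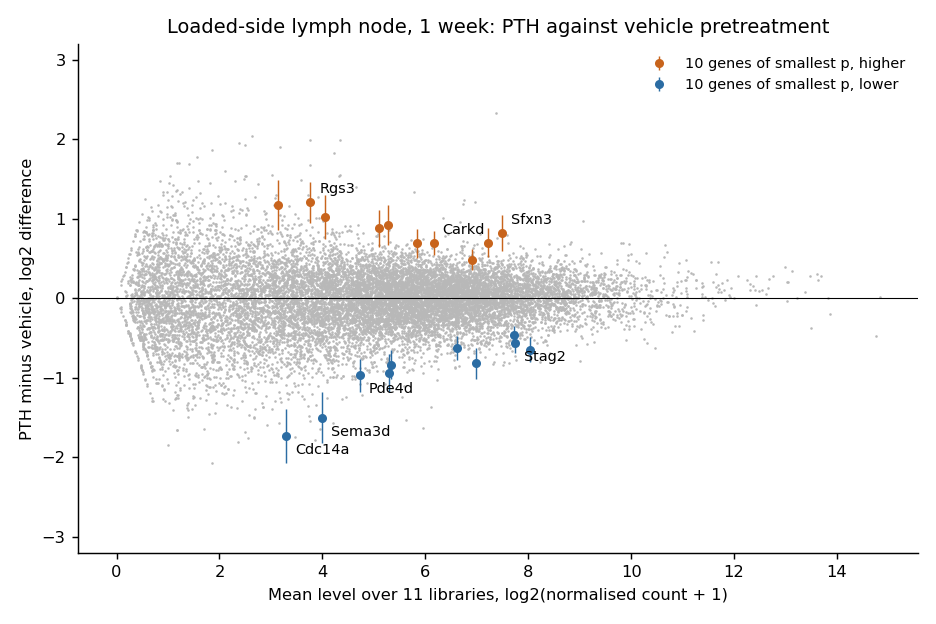
Difference between PTH and vehicle pretreatment (vertical axis, log2) against mean level over the 11 libraries (horizontal axis, log2) for the 14121 genes tested in the loaded-side node; grey points are genes, coloured points the 10 genes of smallest p in each direction with the SE of the difference. The differences centre on a median of -0.003, and none of the coloured genes passed an adjusted p of 0.05 in limma.

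The genes of smallest p with lower values after PTH are described first, as values that did not pass. Cdc14a encodes a phosphatase that reverses cyclin-dependent kinase phosphorylation and lies on chromosome 3 (mm10 coordinates 116272553 to 116424032). Its level was 3.54, 4.00 and 4.79 (lowest, median and highest) in the 6 vehicle libraries, and 1.02, 2.66, 2.08, 3.81 and 2.17 in PTH replicates 1, 2, 3, 4 and 6. PTH replicate 4 lay within the vehicle range and the other 4 below it. The difference was -1.73 ± 0.34 (SE), with an adjusted p of 0.0914 in limma and 0.276 in edgeR.

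Sema3d, a secreted semaphorin that guides axons and endothelial cells, lies on chromosome 5 (12383385 to 12588948). It measured 4.27, 4.69 and 5.22 (lowest, median and highest) with vehicle, against 3.03, 2.66, 3.79, 2.42 and 4.01 in the PTH libraries. All 5 PTH libraries lay below all 6 vehicle libraries. The difference was -1.50 ± 0.32 (SE, adjusted p 0.0915 in limma and 0.100 in edgeR).

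Pde4d encodes a phosphodiesterase that degrades cyclic AMP and lies on chromosome 13 (108449948 to 109953461). Vehicle libraries had levels of 4.86, 5.15 and 5.54 (lowest, median and highest), and the PTH libraries 3.84, 4.47, 4.23, 4.56 and 3.90. The groups did not overlap. The difference was -0.97 ± 0.20 (SE, adjusted p 0.0915 in limma and 0.100 in edgeR). Before loading the difference of Pde4d between P0 and V0 mice was -0.34 ± 0.15 (SE). In alendronate mice at 1 week it was -0.10 ± 0.19 (SE).

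Atf6, a transcription factor of the unfolded protein response, had levels of 5.46, 5.63 and 6.04 (lowest, median and highest) with vehicle and of 5.16, 4.54, 4.91, 4.71 and 5.12 in the PTH libraries. These groups did not overlap either, and the difference was -0.83 ± 0.18 (SE, adjusted p 0.109 in limma). The other 6 genes of the 10 were Stag2, a cohesin subunit, Cul1, the scaffold of SCF ubiquitin ligases, Ube2k, a ubiquitin-conjugating enzyme, Jmjd1c, a JmjC-domain protein, Spty2d1, a histone chaperone, and Dusp7, a phosphatase of MAP kinases. Their differences ran from -0.94 (Dusp7) to -0.46 (Cul1), with adjusted p of 0.147 to 0.275 in limma. Among the 6, only Dusp7 had overlapping groups.

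In the other direction, Rgs3 had the smallest p. It encodes a GTPase activator that shortens G protein signalling and lies on chromosome 4 (62559847 to 62704001). Its level was 2.82, 3.26 and 3.51 (lowest, median and highest) with vehicle and 4.03, 4.73, 4.98, 4.27 and 4.11 with PTH. Every PTH library lay above every vehicle library. The difference was 1.21 ± 0.26 (SE, adjusted p 0.0915 in limma and 0.100 in edgeR), where it had been -0.05 ± 0.28 (SE) before loading.

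Carkd, an NAD(P)HX dehydratase that repairs damaged nicotinamide cofactors, measured 5.64, 5.80 and 6.17 (lowest, median and highest) with vehicle and 6.47, 6.84, 6.40, 6.53 and 6.48 with PTH. The groups did not overlap, and the difference was 0.70 ± 0.15 (SE, adjusted p 0.0989 in limma). The remaining 8 genes all had an adjusted p of 0.289 in limma. They were Pnpla2, the lipase that begins triglyceride breakdown, Acy1, an aminoacylase, Gstz1, an enzyme of tyrosine breakdown, Lcmt1, a methyltransferase of protein phosphatase 2A, Gpr108, a Golgi membrane protein, Ccdc114, a docking protein of ciliary dynein, Rmi2, a partner of the BLM helicase, and Sfxn3, a mitochondrial serine transporter. Their differences ran from 0.49 (Gpr108) to 1.17 (Ccdc114). Acy1, Gstz1 and Lcmt1 had groups that did not overlap, and the other 5 overlapped. These 20 genes were taken for their small p in this contrast, so their separation is a description of it.

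**Figure D2:**
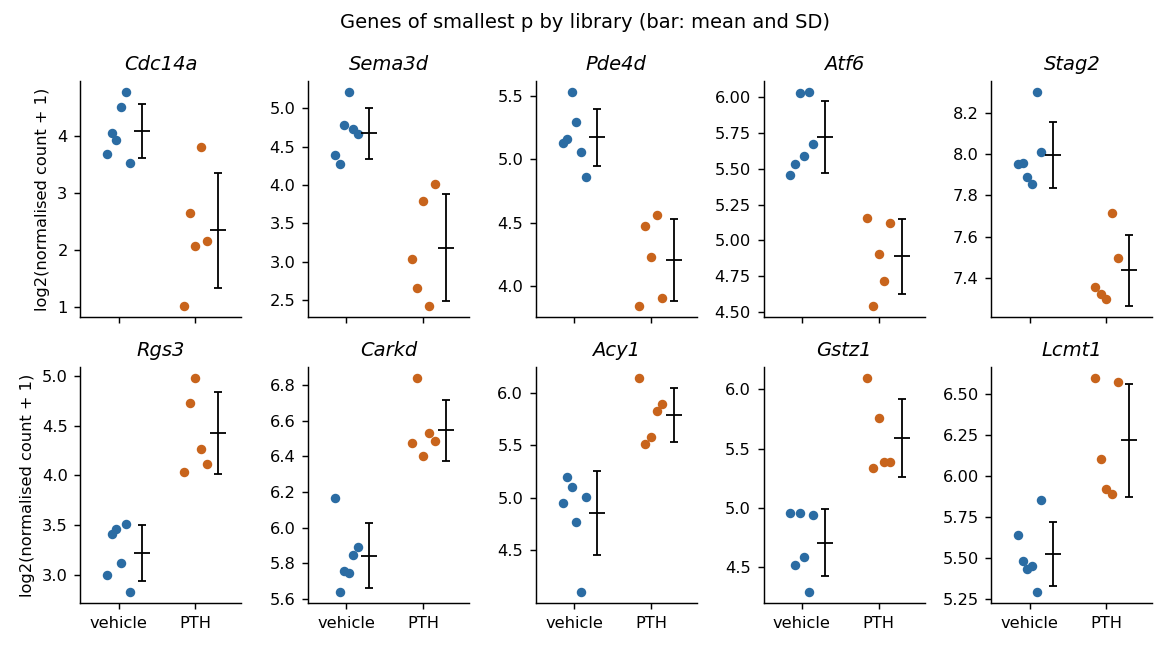
Level of 10 genes of small p in each of the 6 vehicle and 5 PTH libraries of the loaded-side node (vertical axes, log2 of normalised count plus 1; bars are mean and SD). The PTH libraries of Sema3d, Pde4d, Atf6 and Stag2 all lie below the vehicle libraries, those of Rgs3, Carkd, Acy1, Gstz1 and Lcmt1 all above, and for Cdc14a 1 PTH library at 3.81 lies inside the vehicle range.

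The node before loading gave the reference for a carryover. In other mice of the same pretreatment, 16 P0 libraries from 8 mice were set against 16 V0 libraries from 8 mice, and 72 of 12667 genes (0.568%) passed in limma, 39 higher and 33 lower with PTH. edgeR, fitted without a term for the mouse, called 192 there. The left limbs alone gave 0 in limma with 992 at an unadjusted p under 0.05. The tables were normalised apart, so the values at 1 week are set beside these and not tested against them. All 72 genes were tested at 1 week and 0 of them passed. Their differences had the same sign as before loading in 60 of 72, namely in 30 of the 39 higher genes and in 30 of the 33 lower ones. Over all 12652 genes measured at both times the share with the same sign was 64.1%. At an unadjusted p under 0.05, 8 of the 72 differed in the same direction and 0 in the other, where 10.3% of all these genes passed that mark in either direction.

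The size of the differences was smaller at 1 week. The median of the 39 higher genes was 0.56 before loading and 0.21 at 1 week, and that of the 33 lower genes was -0.64 and then -0.26. The first of each pair is inflated by the choice of genes, which were taken for passing there. The 95% interval at 1 week held the value from before loading for 46 of the 72 genes and excluded it for 26. Across the 12652 genes the 2 sets of differences had a Pearson correlation of 0.28 and a Spearman correlation of 0.34. No mice are common to both, genes are not independent replicates, and both sets of differences followed transcript length and GC content, as given below.

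The same 72 genes were read in the other comparisons. In the loaded-side node of alendronate mice 41 of 72 had the sign seen before loading, against 51.6% of all genes, and the interval excluded the earlier value for 54. In the contralateral node 44 of 72 did, or 49 of 72 without the VV1 library that stood apart, against 54.6% and 59.6% of all genes. In the loaded-side node at 2 weeks 52 of 72 did, against 55.7% of all genes. The 2-week comparison holds a VV2 library of 42853 reads, and without it the count was 53. No gene of the 72 passed in any of these.

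The 8 genes of the 72 with an unadjusted p under 0.05 at 1 week were picked after their values were seen, apart from Errfi1. Gtf2a1, a subunit of the basal factor TFIIA, had levels of 6.20, 6.67 and 7.10 (lowest, median and highest) with vehicle and 6.01, 6.15, 6.51, 6.12 and 5.80 with PTH. Its PTH libraries lay low but replicate 3 fell within the vehicle range. The difference was -0.57 ± 0.17 (SE, adjusted p 0.316 in limma), beside -0.54 before loading. Twist1, a mesenchymal transcription factor, had no read in 4 of 5 PTH libraries, a level of 1.11 in the fifth, and levels of 0 to 2.47 with vehicle. Its difference was -1.29 ± 0.50 (SE, adjusted p 0.39 in limma), beside -1.23 before loading. Smg1, a kinase of nonsense-mediated decay, differed by -0.46. Paox, a polyamine oxidase, Tmem160, a mitochondrial membrane protein, Cpsf3, the endonuclease of 3' end cleavage, and Nme2, a nucleoside diphosphate kinase, differed by 0.33 (Nme2) to 0.54 (Paox).

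**Figure D3:**
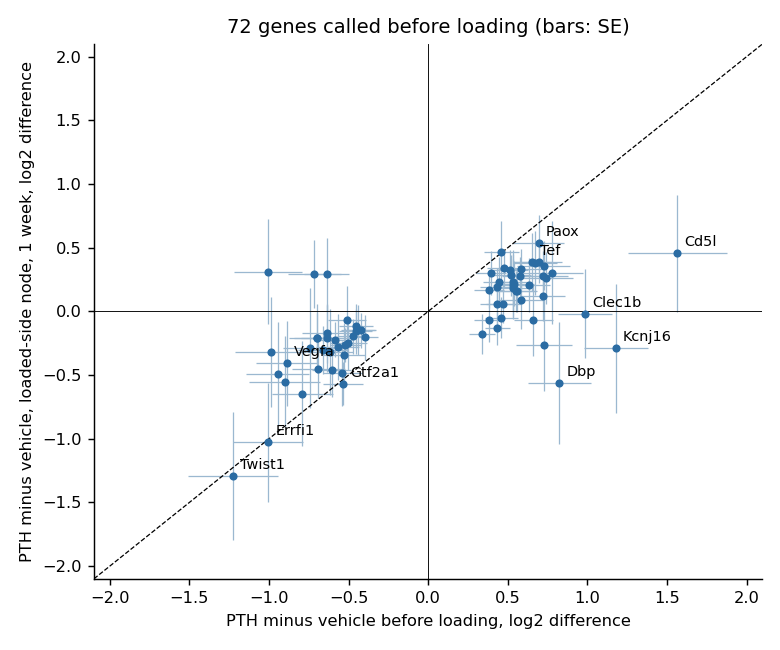
The 72 genes that passed before loading, with the difference between PTH and vehicle before loading (horizontal axis, log2) against the difference in the loaded-side node at 1 week (vertical axis, log2); bars are SE and the dashed line is equality. In 60 of 72 genes both differences have the same sign, and most points lie nearer to 0 on the vertical axis.

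Genes named in an earlier account of the node before loading were followed singly. Cd5l, a soluble protein of tissue macrophages, had the largest of these differences before loading, 1.56 ± 0.31 (SE). At 1 week its level was 5.74, 6.02 and 6.47 (lowest, median and highest) with vehicle and 6.84, 6.06, 7.12, 5.20 and 7.47 with PTH. PTH replicates 1, 3 and 6 lay above all vehicle libraries, replicate 2 lay within their range and replicate 4 below it. The difference was 0.46 ± 0.46 (SE, adjusted p 0.778 in limma), with a 95% interval of -0.47 to 1.38.

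Errfi1, a feedback inhibitor of the EGF receptor that glucocorticoids induce, differed by -1.01 before loading and by -1.03 ± 0.47 (SE, adjusted p 0.458 in limma) at 1 week. Its level was 3.30, 4.36 and 6.67 (lowest, median and highest) with vehicle and 3.61, 3.66, 2.89, 3.14 and 4.38 with PTH, and the groups overlapped. At 2 weeks, in other mice, its difference was -1.01, or -0.65 ± 0.37 (SE) without the VV2 library of 42853 reads. In alendronate mice at 1 week it was 0.20. Kcnj16, a potassium channel subunit, and Clec1b, the podoplanin receptor found on platelets and some macrophages, had differed by 1.18 and 0.98 before loading. At 1 week they differed by -0.29 ± 0.50 and -0.02 ± 0.35 (SE), and the sign of Clec1b turned with the settings used. Both intervals, -1.31 to 0.73 and -0.72 to 0.68, lay below the earlier values.

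Dbp and Tef, PAR-domain factors of circadian output, had been 0.82 and 0.65 higher before loading. Dbp now measured 4.46, 5.39 and 6.61 (lowest, median and highest) with vehicle and 4.35, 2.66, 6.20, 5.42 and 6.00 with PTH, a difference of -0.56 ± 0.48 (SE). The lowest Dbp value, PTH replicate 2, set that difference: without it the value was 0.0003. Tef differed by 0.39 ± 0.23 (SE). Vegfa, the endothelial growth factor, differed by -0.41 ± 0.33 (SE) where it had been -0.89, and Scd1, a fatty acid desaturase, by 0.05 ± 0.23 (SE) where it had been -0.85. Pth1r itself was low in the node, at 2.99 to 4.25 with vehicle and 3.37 to 4.08 with PTH, and differed by 0.19 ± 0.51 (SE). No gene of these 9 passed (adjusted p of 0.458 to 0.992 in limma).

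Gene lists were read by counts, medians and list means per library, beside the whole table, where 49.6% of genes were higher and the median was -0.003. In bulk tissue fewer cells of a type and less RNA per cell cannot be told apart. No member of any of the 37 lists passed in this comparison. Leaving out a library gives list medians as medians of differences between group means. On the loaded side the list means of the groups did not overlap in 3 of the 37 lists. These were PTH receptor and cyclic AMP targets, clock genes of opposite phase to Dbp, and proliferation. The same 3 list means overlapped between VV1 and PV1 libraries in the contralateral node, with or without the VV1 library that stood apart. There the cyclic AMP list mean ran from 4.07 to 5.26 in VV1 and from 3.98 to 4.89 in PV1 libraries. That of proliferation ran from 5.00 to 7.93 and from 4.68 to 5.30.

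Of the PTH receptor and cyclic AMP target list, 10 of 15 members were tested, 8 had lower and 2 had higher values after PTH, and the median difference was -0.22. On leaving out single libraries the median ran from -0.35 (without PTH replicate 6) to -0.11 (without PTH replicate 3), and it was -0.13 without VV1 replicate 2. The list mean was 4.27, 4.47 and 4.92 (lowest, median and highest) with vehicle and 3.83, 4.04, 4.17, 4.15 and 4.06 with PTH. Pde4d and Nr4a1 were the members with an unadjusted p under 0.05. Nr4a1, an orphan nuclear receptor induced by cyclic AMP, ranged from 3.72 to 4.95 with vehicle. With PTH it was 0.00, 1.04, 4.74, 4.20 and 2.50, so 2 PTH libraries lay inside the vehicle range and 3 below it. Its difference was -1.74 ± 0.69 (SE, adjusted p 0.398 in limma). Fos differed by -1.13 ± 0.70 and Fosb by -0.74 ± 0.52 (SE). Before loading the list median was -0.34, with 3 of 9 members higher. In alendronate mice at 1 week it was -0.03. At 2 weeks it was 0.23, but -0.18 without the VV2 library of 42853 reads.

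The promoters of the 3 list members of smallest p that carry a CREB half-site are shown because CREB binds that site in promoters that respond to cyclic AMP. The half-site TGACG was searched on both strands of 300 bases around each start, and is itself part of the full site TGACGTCA. It was present in 7 of the 8 list promoters that RefSeq's GRCm38.p6 table holds, against 21.0% of all 27025 promoters and 30.4% of those of tested genes. The full site was in 0 of the 8, in 1.88% of all and in 3.04% of those of tested genes. The list was put together from cyclic AMP targets, so its share of half-sites is background and not a result of these libraries. The tested genes with a half-site had a median difference of -0.007 and those without one 0.001. Nr4a1 is on the + strand at chr15:101266596-101266895, Fos on the + strand at chr12:85473640-85473939 and Fosb on the - strand at chr7:19309996-19310295. Capitals mark the half-site on either strand.
Nr4a1: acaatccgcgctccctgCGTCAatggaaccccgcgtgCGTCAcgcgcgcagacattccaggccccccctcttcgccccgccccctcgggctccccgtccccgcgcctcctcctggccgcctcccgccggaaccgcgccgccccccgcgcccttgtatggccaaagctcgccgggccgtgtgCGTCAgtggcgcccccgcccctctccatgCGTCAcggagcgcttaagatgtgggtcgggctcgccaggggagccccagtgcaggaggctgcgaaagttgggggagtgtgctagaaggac
Fos: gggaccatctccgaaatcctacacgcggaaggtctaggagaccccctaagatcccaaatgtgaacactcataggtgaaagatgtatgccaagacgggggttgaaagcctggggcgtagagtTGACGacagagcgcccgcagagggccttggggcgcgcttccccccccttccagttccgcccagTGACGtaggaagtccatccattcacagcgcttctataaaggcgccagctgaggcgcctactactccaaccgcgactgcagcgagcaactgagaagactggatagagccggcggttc
Fosb: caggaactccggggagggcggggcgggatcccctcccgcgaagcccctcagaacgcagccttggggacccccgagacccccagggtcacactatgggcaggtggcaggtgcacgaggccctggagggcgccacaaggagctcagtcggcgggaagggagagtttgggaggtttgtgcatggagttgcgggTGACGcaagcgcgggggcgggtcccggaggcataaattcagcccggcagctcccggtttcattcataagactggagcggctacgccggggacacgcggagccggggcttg

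The immediate early list, genes induced within minutes by stimuli that include handling and dissection, had 13 of 16 members lower and 3 higher, with a median of -0.27. Its list mean ran from 4.92 to 6.14 with vehicle and from 4.76 to 5.05 with PTH, and the groups overlapped. VV1 replicates 1 and 2 were the high libraries, at 6.14 and 5.60. Jun, a subunit of AP-1, measured 5.80, 6.10 and 6.71 (lowest, median and highest) with vehicle and 5.67, 5.29, 5.62, 5.23 and 5.50 with PTH. Its groups did not overlap and its difference was -0.68 ± 0.30 (SE, adjusted p 0.447 in limma). Egr3 and Zfp36 were the other members with an unadjusted p under 0.05, at -1.65 and -0.63, and Egr1 differed by -0.88. Egr3 had no read in 4 of 5 PTH libraries. Without VV1 replicate 1 the list median was -0.11, with 10 of 16 lower. Before loading 10 of 14 members were lower, with a median of -0.24, and among alendronate mice at 1 week 8 of 16, with -0.06. Fos and Fosb belong to both this list and the last.

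All 6 tested clock genes of opposite phase to Dbp had lower values, with a median of -0.23. The count of lower members was 4 to 6 on leaving out single libraries, and the median was -0.39 without VV1 replicate 2. Npas2, a paralogue of Clock, was the member nearest to 0, at -0.01 ± 0.44 (SE). The list mean was 3.25 to 3.65 with vehicle and 2.70 to 3.24 with PTH, a narrow gap. Clock, the transcription factor that pairs with BMAL1, was 4.32, 4.99 and 5.36 (lowest, median and highest) with vehicle and 3.84, 3.08, 4.34, 3.72 and 3.52 with PTH. Only PTH replicate 3 reached the vehicle range. The difference was -1.26 ± 0.35 (SE, adjusted p 0.289 in limma). Arntl, which encodes BMAL1, differed by -0.54 ± 0.42 (SE) with overlapping groups. The list that peaks with Dbp and Per had 4 of 9 members higher and a median of -0.10, which ran from -0.22 (without VV1 replicate 1) to 0.11 (without PTH replicate 1), where 8 of 9 had been higher before loading. Time of day at sampling was not analysed here, and its part in these values was not tested.

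Of the 22 proliferation genes, 18 had higher values after PTH, with a median of 0.29. The list mean was 4.76 to 5.21 with vehicle and 5.22, 5.22, 5.23, 5.24 and 5.42 in the PTH libraries, so the gap between the groups was narrow. Birc5, the survivin subunit of the chromosomal passenger complex, was 5.01, 5.99 and 6.62 (lowest, median and highest) with vehicle and 6.95, 7.12, 6.66, 6.80 and 6.93 with PTH. Every PTH library lay above every vehicle library. The difference was 1.01 ± 0.32 (SE, adjusted p 0.339 in limma). Aurka and Plk1, mitotic kinases, differed by 0.67 and 0.58, while Pcna, the DNA clamp, differed by -0.44. Mki67, the marker Ki-67, differed by -0.33 ± 0.34 (SE), and all its PTH libraries (5.84 to 6.00) lay below the vehicle libraries (6.15 to 6.44). Its SE is pooled over the 44 libraries at 1 week, among them the contralateral VV1 replicate 1, whose proliferation list mean was 7.93. Before loading 8 of 22 members were higher, and among alendronate mice at 1 week 8 of 22. At 2 weeks 12 of 22 were higher, with a median of 0.03. Without the VV2 library of 42853 reads it was 17 of 22, with a median of 0.28.

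Adipocyte genes had the largest list median, 1.54, with 12 of 13 tested members higher. Fabp4, the fatty acid carrier of fat cells, was 5.06, 6.56 and 7.54 (lowest, median and highest) with vehicle and 9.66, 5.67, 7.86, 5.99 and 8.97 with PTH. PTH replicates 1, 3 and 6 lay above the vehicle range and the other 2 inside it. The difference was 1.22 ± 0.62 (SE, adjusted p 0.517 in limma). Plin1, which coats lipid droplets, and Adrb3, the fat cell adrenergic receptor, differed by 1.93 ± 0.73 and 2.04 ± 0.89 (SE), both with an unadjusted p under 0.05. Cfd, the protease adipsin, ranged from 3.90 to 7.87 with vehicle and from 5.29 to 11.7 with PTH. Before loading 0 of 13 members were higher, with a median of -0.81. At 2 weeks 12 of 13 were higher, with a median of 0.67, or 11 of 13 with 0.57 without the shallow VV2 library, and among alendronate mice at 1 week 5 of 13, with a median of -0.26. The list mean of PTH replicates 1, 3 and 6 was 7.26, 5.26 and 6.51, above the vehicle range of 2.78 to 4.78, while replicates 2 and 4 lay inside it at 3.23 and 4.29. Without PTH replicate 1 the median was 0.90. In the contralateral node the list median had the other sign, -1.03 with all libraries. Its list means were 4.03 to 6.19 in VV1 and 2.60 to 6.02 in PV1 libraries, and the VV1 library that stood apart was the one at 4.03. The part of fat around the node in other differences, Pnpla2 among them, was not tested.

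Neutrophil and monocyte genes had 8 of 12 members higher and a median of 0.97. Granule genes carried it: Ltf, Camp and Ngp, which encode lactoferrin, cathelicidin and neutrophilic granule protein, differed by 1.91 ± 0.83, 1.99 ± 0.88 and 1.99 ± 0.94 (SE). Ngp measured 1.73, 3.38 and 5.44 (lowest, median and highest) with vehicle and 7.56, 5.37, 6.20, 4.45 and 3.52 with PTH, with overlapping groups. Ccr2, the receptor that brings monocytes to tissue, went the other way at -0.85 ± 0.21 (SE, adjusted p 0.275 in limma). Its level was 6.69, 7.02 and 7.42 (lowest, median and highest) with vehicle and 5.70, 5.97, 6.79, 5.99 and 6.52 with PTH, of which only replicate 3 reached the vehicle range. Before loading 10 of 11 members of the list were higher, with a median of 0.51. Among alendronate mice at 1 week 10 of 12 were higher, with a median of 0.26. At 2 weeks 0 of 12 were higher, or 7 of 12 without the VV2 library of 42853 reads. PTH replicate 1 had the highest list mean of the 11 libraries for neutrophil and monocyte (6.14), erythroid (4.49), platelet (3.43) and interferon response genes (5.89). Without it the neutrophil median was 0.50. Of 10 erythroid genes 4 were tested and 3 of them were higher, with a median of 1.31, or 0.94 without that library. Their list mean was 1.86 to 3.01 with vehicle and 2.70 to 4.49 with PTH, and the groups overlapped. Car2, a carbonic anhydrase, differed by -0.06 ± 0.58 (SE). The part of blood in the node in these values was not tested. The count of genes called in the comparison was 0 in limma with and without that library, with 1205 at an unadjusted p under 0.05 without it, and 56 of 72 genes kept the sign they had before loading.

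**Figure D4:**
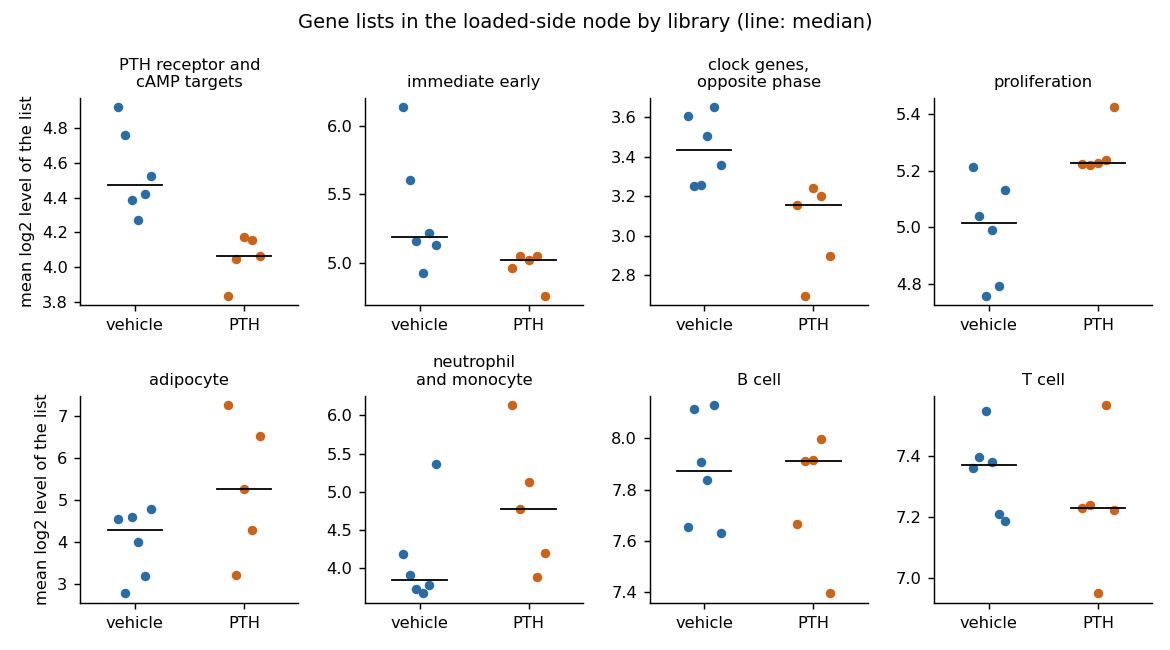
Mean log2 level of 8 gene lists in each of the 6 vehicle and 5 PTH libraries of the loaded-side node (lines are medians; axes differ between panels and do not start at 0). The libraries of the cyclic AMP list (3.83 to 4.17 with PTH, 4.27 to 4.92 with vehicle), the clock list and the proliferation list do not overlap between groups, and those of the other 5 lists do.

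Lymphocyte lists differed less. The B cell list had 5 of 9 members higher and a median of 0.05, with list means of 7.63 to 8.13 for vehicle and 7.40 to 8.00 for PTH. Ms4a1, which encodes CD20, was an exception in its list: it measured 9.08, 9.31 and 9.85 (lowest, median and highest) with vehicle and 8.64, 8.47, 8.95, 8.49 and 8.37 with PTH. Its groups did not overlap and its difference was -0.79 ± 0.38 (SE, adjusted p 0.482 in limma). That SE is pooled over the 44 libraries at 1 week, and the contralateral VV1 replicate 1 had a B cell list mean of 5.29. The T cell list had 5 of 12 higher and a median of -0.14, or -0.06 without PTH replicate 3 and -0.08 without VV1 replicate 3. MHC class II genes had 6 of 11 higher and a median of 0.02. On leaving out single libraries the B cell median ran from -0.02 to 0.11, that of MHC class II from -0.02 to 0.10 and that of the ribosomal list below from 0.01 to 0.14. Cytosolic ribosomal protein genes had 21 of 30 higher and a median of 0.07, where 29 of 30 had been higher before loading with a median of 0.30.

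Among vessel genes, the lymphatic endothelium list had 8 of 9 members lower and a median of -0.33, and its list mean overlapped (5.41 to 6.13 with vehicle, 4.16 to 6.07 with PTH). PTH replicate 4 was its lowest library, and without it the median was -0.02, while without VV1 replicate 6 it was -0.21. Before loading 6 of 9 members were higher, with a median of 0.18, and among alendronate mice at 1 week 3 of 9, with -0.17. Prox1, the lymphatic identity factor, and Flt4, the VEGF-C receptor, differed by -0.95 ± 0.50 and -0.52 ± 0.28 (SE). High endothelial venule and blood endothelium genes had 9 of 12 members higher and a median of 0.11. Without PTH replicate 3 it was 0.02 with 6 of 12 higher, and without PTH replicate 4 it was 0.23; it was 0.03 without PTH replicate 2 and 0.04 without VV1 replicate 3. Among its members were Fut7, which builds the L-selectin ligand, at 0.65 ± 0.23 (SE), Esam at 0.42 and the cadherin Cdh5 at -0.46. The chemokine list had 14 of 21 members lower and a median of -0.31. Ccl12, a monocyte chemokine, was 4.20 to 5.17 with vehicle and 3.84, 0.00, 3.41, 3.28 and 4.11 with PTH, without overlap, at -1.54 ± 0.65 (SE, adjusted p 0.422 in limma). Ccl2 differed by -1.80 ± 0.79 (SE), with VV1 replicate 1 the highest library at 6.09. Without VV1 replicate 1 the chemokine median was -0.11, without PTH replicate 4 it was -0.10, without PTH replicate 2 it was -0.17 and without PTH replicate 6 it was -0.47. Before loading 12 of 19 chemokine genes were lower, with a median of -0.18. Among alendronate mice at 1 week 5 of 21 were lower, with a median of 0.27.

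The differences followed the length of the transcript and its GC content. Of the tested genes 90.6% could be given a transcript length from GENCODE M21, and they were split by length into 4 classes of near equal size. In the shortest class (up to 1989 bases) the median difference was 0.07 and in the longest class (4647 bases and over) -0.10. At an unadjusted p under 0.05 the shortest class held 177 higher and 83 lower genes, and the longest 70 higher and 294 lower. The Spearman correlation across 12794 genes was -0.18 with length and 0.31 with GC content. Before loading the same correlations were -0.31 and 0.34, and in alendronate mice at 1 week -0.09 and -0.05. The gap between the mean levels of the longest and shortest classs in each library was 0.18, 0.22 and 0.53 (lowest, median and highest) with vehicle and -0.11, 0.28, 0.24, 0.15 and 0.11 with PTH. PTH replicate 1 was the lowest and the groups overlapped. The contralateral PV1 replicate 1, from the same mouse by the title codes, was at -0.10. Without the loaded-side PTH replicate 1 the length correlation was -0.11. The GC correlation was 0.30 without that library. On leaving out single libraries it ran from 0.27 (without VV1 replicate 5) to 0.33 (without VV1 replicate 2). Genes were not split by GC content. Within each length class the share of genes with the sign seen before loading was 61.2% to 67.9%. The genes that passed before loading differed in length themselves. The median was 1215 bases for 32 of those higher there and 4597.5 bases for 32 of those lower. From the shortest to the longest class, 20 of 25, 6 of 7, 10 of 14 and 16 of 18 of them kept their sign at 1 week. Of the 10 named genes with lower values the median length was 5058 bases, against 2625 for 9 of the 10 with higher values and 3107 over all. The part of transcript length or GC content in the other results was not tested.

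**Figure D5:**
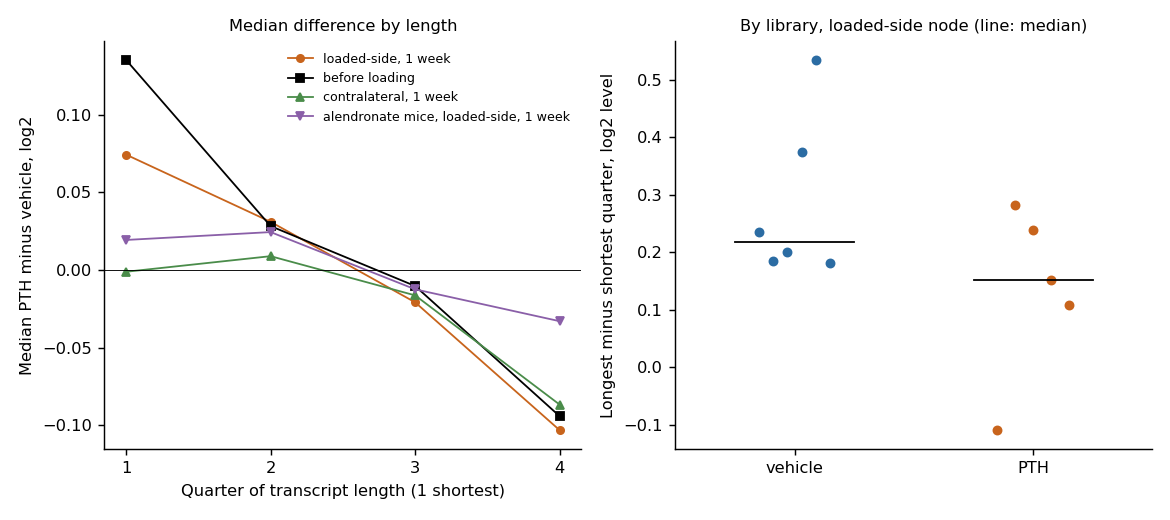
Left, median difference between PTH and vehicle (log2) in 4 classes of transcript length for 4 comparisons; right, mean level of the longest minus that of the shortest class (log2) in each of the 6 vehicle and 5 PTH libraries, with lines at the medians. The loaded-side median goes from 0.07 in the shortest to -0.10 in the longest class, and the libraries of the groups overlap.

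Whether the PTH difference belonged to the loaded side was tested against the contralateral node. In the contralateral node 4 of 14121 genes passed in limma (0.0283%): Baiap3 higher, and Adamtsl1, F13a1 and Luzp1 lower. Leaving out another of the contralateral VV1 libraries instead gave 432 to 650. Without the VV1 library that stood apart 0 passed, with 1123 at an unadjusted p under 0.05 in limma and 1138 in edgeR, which also called 0. The difference between the sides passed for 1 gene in limma (0.00708%), Adamtsl1, a secreted ADAMTS-like protein. Its PTH difference was 1.18 ± 0.46 on the loaded side and -2.56 ± 0.51 on the other (SE), with an adjusted p of 0.0199 in limma for the difference. Without that library 0 genes passed in limma and in edgeR, with 484 and 367 at an unadjusted p under 0.05. With all libraries edgeR called 696 genes in the contralateral node and 67 for the difference between sides. Loading itself, the left against the right node, gave 0 genes (0%) in VV1 mice and 0 (0%) in PV1 mice in limma. At an unadjusted p under 0.05 there were 1995 and 336 genes with the VV1 library that stood apart, and 433 and 429 without it. In PV1 mice the count was 820 without the contralateral PV1 replicate 1. edgeR called 568 in VV1 mice with that library and 0 without it, and 0 in PV1 mice.

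Whether it depended on the treatment during loading was tested against alendronate mice, with 7 PA1 and 6 VA1 left libraries and no library in common. PTH against vehicle gave 0 genes among them (0%) in limma, with 682 at an unadjusted p under 0.05. The difference between the 2 PTH differences passed for 0 genes (0%), with 1006 at an unadjusted p under 0.05 and a smallest adjusted p of 0.596 in limma. edgeR and DESeq2 called 0 in both. For Cdc14a, Sema3d and Rgs3 the alendronate differences were -0.37, -0.04 and 0.23, and their differences from the values above did not pass either. At 2 weeks, in other mice, PV2 against VV2 on the loaded side gave 0 genes of 14162 (0%) in limma, with 747 at an unadjusted p under 0.05, and edgeR called 0, with 801 at that mark. Without the VV2 library of 42853 reads limma also gave 0, with 507 at that mark. Both fits kept VA2 left replicate 8, an alendronate library of 153802 reads outside the contrast, in the pooled spread. Cdc14a, Sema3d, Pde4d and Rgs3 differed at 2 weeks by 0.19, 0.21, 0.30 and -0.09 with the VV2 library of 42853 reads. Without it they differed by -0.23, -0.22, -0.28 and 0.09, so the signs turned with 1 library.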

How the data were processed

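Bulk 3' RNA-seq of inguinal lymph nodes was analysed. Per the submitters' processing notes, Trimmomatic 0.39, STAR, edgeR and the mouse build mm10 were used. The authors deposited normalised counts per gene, a signal equal to reads divided by a size factor for each library within a table. The table holds unit steps from which whole reads were recovered for 100% of values within 0.01, so depth is known. Entries whose symbols had become dates, up to 0.0383% of reads at 1 week, were left out.

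Genes with a CPM of at least 1 in as many libraries as the smallest group were tested with limma 3.58.1 (R 4.3.3, statmod 1.5.0) on log2(value + 1), with a trended prior, in 1 model of the 8 groups of 44 libraries. Mouse was a random block (correlation 0.08, from 2000 genes), taken from codes in the titles. Benjamini-Hochberg adjusted p under 0.05 was the threshold. The tables before loading and at 2 weeks were fitted apart. edgeR 4.0.16 (quasi-likelihood) and DESeq2 1.42.0 on recovered reads, other pseudocounts, filters and scalings, and leaving out each library were alternatives. The edgeR and DESeq2 fits had no term for the mouse, so both nodes of a mouse count as independent in them. The pipeline was tested on simulated data, drawn without the contralateral VV1 replicate 1 and without correlation between nodes of a mouse. That simulation does not cover either feature of the reported fit. The members and gene lists were chosen with earlier results of these data known. The named genes were, where fewer than 10 passed in a direction, the 10 of smallest p with a mean level of 3 or more, together with 9 genes followed from before loading and up to 4 members of smallest p in each list described. A count of reads limits low genes: 1 read is the smallest step, and p-values measure the spread between the mice sampled. The treatment groups follow runs of the codes in the titles, so treatment and code order cannot be told apart. Promoter sequences came from RefSeq and transcript lengths from GENCODE M21.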

Additional observations from a re-analysis of the deposited data

Results flagged for a closer look

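Values were looked at again where 1 library lay far from the others of its group of 4 to 10. Of 269 groups of values 29 had such a value, where chance gives about 1 in 20. On the loaded side there were 20 of 232. In PTH libraries these were Carkd at 6.84 and Spty2d1 at 5.89, Pcna at 4.08 and Ccl12 at 0 in replicate 2, Rmi2 at 3.62 in replicate 3, Egr3 at 1.45 and Flt4 at 4.45 in replicate 4, and Blk at 7.03 and Twist1 at 1.11 in replicate 6. The interferon response list mean was 5.89 in PTH replicate 1 and the proliferation list mean 5.42 in PTH replicate 6. In vehicle libraries they were Stag2 at 8.30, Ube2k at 8.79 and Nme2 at 8.54 in replicate 5, Fosb at 0 in replicate 4, Ccl12 at 5.17 in replicate 1 and Themis at 2.66 in replicate 6. The list means apart were chemokine ligands at 6.29 in replicate 1, interferon response at 5.60 in replicate 4, and neutrophil and monocyte genes at 5.36 in replicate 6.

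The other 9 were all list means of the contralateral VV1 replicate 1: B cell 5.29, MHC class II 7.07, T cell 3.95, chemokine ligands 4.02, dendritic cell 4.13, inflammatory cytokines and NF-kB targets 4.09, natural killer and cytotoxic cell 2.66, proliferation 7.93 and regulatory T cell 2.96. The difference of the PTH difference between the loaded and contralateral sides was 3.74 ± 0.67 (SE) for Adamtsl1, with an adjusted p of 0.0199 in limma, and it did not pass without that library.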

How the results depend on the processing

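The loaded-side count of 0 genes became 2 with DESeq2, 1 (Cdc14a) with array weights and 0 to 1 on leaving out single libraries, the 1 being Cdc14a without PTH replicate 4. By the labels, same-numbered PTH and vehicle libraries share only a number, and whether they share more was not tested. Correlations of their deviations were -0.07 to 0.18, and the own number was best in 3 of 5. The fit of these groups with the replicate block called 2 genes (Cfd and 2900060B14Rik) against 0 without it. The contralateral count of 4 became 7 and 17 with pseudocounts of 0.25 and 4, 0 with no filter, 40 with a CPM minimum of 5, 696 with edgeR, 633 with DESeq2, 49 with quantile scaling, 9 with a depth term, 0 with array weights and with 4 groups, 0 without VV1 right replicate 1 in limma and in edgeR, and 0 to 650 on leaving out single libraries. The side difference of 1 gene became 2 with no filter, 67 with edgeR, 94 with DESeq2, 0 with array weights, 4 groups or without that library in limma and edgeR, and 0 to 5 on leaving out libraries. Loading in vehicle mice gave 1 gene (Ltk) with a pseudocount of 0.25 or a depth term, 568 with edgeR, 468 with DESeq2 and 0 to 481 on leaving out libraries, and loading in PTH mice 0 to 1. Before loading edgeR gave 192 and the left limbs alone 0. The cause was not tested. Of 2125 values for 79 single genes, 2104 kept direction and side of the threshold, 4 came to pass and 17, of 4 genes, turned sign. Clec1b was 0.029 in edgeR, 0.036 in DESeq2, 0.031 with quantile scaling, 0.044 with array weights, 0.033 with the replicate block and 0.026 in edgeR without VV1 right replicate 1, and ran from -0.25 to 0.23 on leaving out a library. Scd1 was -0.022 with quantile scaling and ran from -0.14 to 0.15, Dbp from -0.87 to 0.00034 and Cry1 from -0.19 to 0.047 on leaving out a library. No library at 1 week had under 100000 reads, so leaving out shallow libraries was not run. The median half-width of the 95% interval, which is for a single gene and unadjusted, was about 0.55 on the log2 scale. A typical gene would need a larger difference than that to pass the adjusted threshold over 14121 genes. Smaller differences could not be resolved, so a count of 0 does not exclude them.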
